A study of Rattus norvegicus with 12 samples.

Results

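Aquaporins are membrane channels through which water follows osmotic gradients, and the genes described here are Aqp1 and Aqp4 of the rat. They were read through every gene probe whose RefSeq accession in the array files belongs to either gene, each probe on its own. The 2 genes, of 15154 gene symbols named on the array, gave 4 probes of its 30367 distinct gene probes: 1 probe for Aqp1, A_44_P299247, printed at 10 spots, and 3 probes for Aqp4, namely A_44_P561166 at 2 spots, A_64_P018751 at 1 spot and A_64_P036063 at 2 spots. Together they fill 15 of the 58717 gene probe spots of an array. Both genes were chosen by what these same processed intensities had already shown, above all that the Aqp4 probes disagree, so their levels and differences are given as a description, with no test.

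Aqp1 encodes a water channel that is always open, abundant in red blood cell membranes, kidney tubules, choroid plexus and many small vessels, and known in rodents from small-diameter sensory neurons as well. Aqp4 encodes the main water channel of astrocytes in the brain, where it gathers at the end feet around vessels, held there by the dystrophin complex. It works beside the glial potassium channel Kir4.1, the product of Kcnj10, in the handling of water and potassium around active neurons, and in sensory ganglia that glial role belongs to satellite glia, the cells that wrap each nerve cell body.

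Each array was hybridised with RNA from dorsal root ganglia at level L6, taken from male rats of the inbred Fischer 344 line. These ganglia hold the cell bodies of the sensory nerve cells that enter the cord at one lumbar level. Rats of the group young_AL were aged 6 months and had free access to normal food. Those of old_AL had the same free access and were aged 25 to 28 months. Those of old_CR, also aged 25 to 28 months, had been fed on 3 days a week since the age of 6 weeks, a restriction of about 40% of calories. There were 4 arrays a group and 12 in all, each labelled with Cy3 from 120 ng of RNA. No allele or drug distinguishes the groups.

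No probe sequence is among the sources used here, so where the 3 Aqp4 probes bind cannot be shown. What the reference does show is that they carry one and the same RefSeq accession, and that RefSeq lists 19 transcripts of Aqp4, 5 curated and 14 predicted, against 1 of Aqp1. It places Aqp4 starts at 2 sites 916 bases apart on the minus strand of chromosome 18, and these windows, from 250 bases before to 50 bases after a start (RefSeq, build GRCr8), are shown because the genes differ in how many forms of RNA a probe could meet. The arrays do not measure promoters. Capitals mark TATAAA (the TATA box), CCAAT (the CCAAT box) and GGGCGG (the GC box), each searched on either strand, with CCGCCC as the GC box of the opposite strand. None of these motifs overlaps another.
Aqp1, chr4:85812534-85812833, plus strand: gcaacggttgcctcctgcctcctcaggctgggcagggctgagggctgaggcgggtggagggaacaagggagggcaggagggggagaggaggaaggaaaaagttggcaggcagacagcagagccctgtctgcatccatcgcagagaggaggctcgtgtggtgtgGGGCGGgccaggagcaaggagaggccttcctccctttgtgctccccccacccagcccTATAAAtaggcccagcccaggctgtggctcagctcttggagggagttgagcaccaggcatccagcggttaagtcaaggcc
Aqp4 first window, chr18:6798793-6799092, minus strand: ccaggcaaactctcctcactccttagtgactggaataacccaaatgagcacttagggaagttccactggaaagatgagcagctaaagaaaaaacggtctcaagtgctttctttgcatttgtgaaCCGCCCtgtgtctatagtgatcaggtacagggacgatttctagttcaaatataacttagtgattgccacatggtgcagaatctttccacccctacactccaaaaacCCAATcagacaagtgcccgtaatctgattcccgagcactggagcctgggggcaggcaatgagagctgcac
Aqp4 second window, chr18:6797877-6798176, minus strand: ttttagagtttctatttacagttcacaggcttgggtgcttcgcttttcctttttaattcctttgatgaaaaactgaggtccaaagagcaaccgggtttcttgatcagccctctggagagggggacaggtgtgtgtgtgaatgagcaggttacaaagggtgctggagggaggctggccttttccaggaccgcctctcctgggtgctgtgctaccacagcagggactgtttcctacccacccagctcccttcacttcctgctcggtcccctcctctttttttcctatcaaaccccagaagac
The Aqp1 window holds TATAAA 30 bases before its start and GGGCGG 87 bases before it. The first Aqp4 window holds CCAAT 20 bases before its start and GGGCGG on the opposite strand 126 bases before it, and the second holds none of these letters. Of 33469 windows of this length in the RefSeq table, 14.2% hold TATAAA, 37.5% hold CCAAT and 33.1% hold GGGCGG, counted anywhere in the window and on either strand. A TATAAA on the gene's own strand and 25 to 35 bases before the start, as in the Aqp1 window, is in 175 of 16845 windows of plus-strand genes and 167 of 16624 of minus-strand genes.

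The values are processed spot intensities. A level below is the log2 of that intensity minus the log2 of the 75th percentile of the same array, so 0 is a probe as bright as that percentile, and levels are compared between arrays for 1 probe, never between probes. One array stood apart and touches every old_AL value: on old_AL 1 the 75th percentile was 7662 against 2634 to 3110 on the other arrays, 4026 gene probe spots were marked as uneven against 1 to 208, and its correlation with the remaining arrays had a median of 0.929, where theirs had 0.971 to 0.994. The differences of the member probes are therefore given on 12 arrays and on the 11 without old_AL 1, and those of other genes mostly on 11 arrays. The young arrays lay on one slide, scanned apart from the slide of both old groups, and slide cannot be told apart from age. The old_AL and old_CR arrays shared a slide in separate rows, so that diet and slide row cannot be told apart either. By symbol, 6 of 7 listed pan-neuronal genes and 8 of 9 listed nociceptor genes were found on the array. All of these passed the detection filter, which asks for a signal well above background on at least 4 arrays. So did 23727 of all 30367 probes on 12 arrays, and 8 of the 9 listed skeletal muscle genes found on the array. Passing the filter therefore does not check the tissue label.

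Aqp4 RNA read through A_44_P561166 was higher in the old restricted ganglia than in either other group, 2.80 times the young level and 2.01 times that of old ad libitum ganglia on 11 arrays. Read through A_64_P036063, Aqp4 was at 1.02 and 0.82 times those levels. Aqp1 read through its single probe was at 1.15 and 0.97 times. In bulk ganglia, a change in the number of cells of a type and a change in RNA per cell cannot be told apart.

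The mean processed intensity of A_44_P561166 on young_AL 1 to 4 was 97.3, 149, 123 and 142. On old_AL 2 to 4 it was 130, 155 and 207, and on old_AL 1, the brightest array as a whole, 583 at the single usable spot. On old_CR 1 to 4 it was 331, 351, 311 and 440. Every restricted array was thus brighter than every young array and than old_AL 2 to 4 before any scaling. The levels after scaling were -4.82, -4.37, -4.56 and -4.44 in young_AL, -3.72, -4.37, -4.09 and -3.73 in old_AL, and -3.17, -3.12, -3.13 and -2.82 in old_CR. The lowest restricted array stood above the highest array of both other groups, old_AL 1 included, while the highest young and lowest old_AL arrays were level at 2 decimals. The group means were -4.55 ± 0.20 (SD, n = 4) in young_AL, -3.98 ± 0.31 (n = 4) in old_AL and -3.06 ± 0.16 (n = 4) in old_CR. Without old_AL 1 the old_AL mean was -4.06 ± 0.32 (n = 3).

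**Figure D1:**
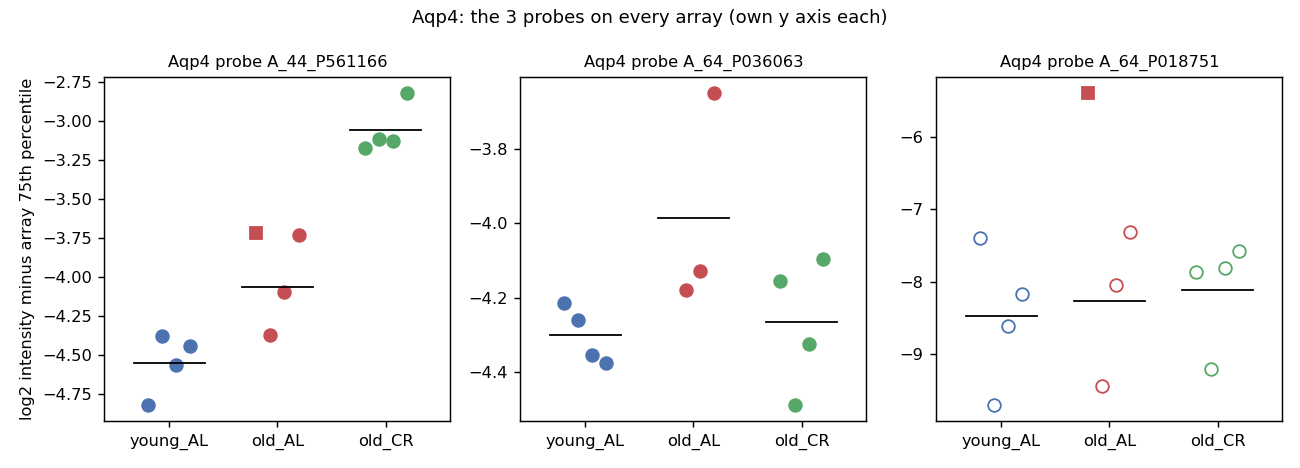
Level of each Aqp4 probe (log2 intensity minus the array's 75th percentile; each panel has its own y axis) on every array by group; the square is old_AL 1, open circles are arrays where A_64_P018751 was not well above background, and lines are group means without old_AL 1. The 4 old_CR arrays of A_44_P561166 sit between -3.17 and -2.82, above all others, while those of A_64_P036063, between -4.49 and -4.10, overlap the young arrays, which lie between -4.38 and -4.21.

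In the fit across all probes, the old_CR level of A_44_P561166 exceeded that of young_AL by 1.49 ± 0.17 (SE) on 12 arrays and by 1.49 ± 0.15 on 11. Over old_AL the excess was 0.92 ± 0.17 on 12 arrays and 1.0 ± 0.16 on 11. The step from young_AL to old_AL was smaller, 0.57 ± 0.17 on 12 arrays and 0.48 ± 0.16 on 11, against a pooled SD between arrays of a group of 0.23. For old_AL against young_AL no member was past an adjusted p of 0.05, where 0.0169% of all tested probes were on 12 arrays and 2.52% on 11. Of the 3 member probes that could be tested, A_44_P561166 alone was past it for old_CR against young_AL on 12 arrays, where 0.0169% of 23727 probes were, and on 11 arrays, where 2.34% were. For old_CR against old_AL it was past it on 11 arrays, where 0.91% of 23623 probes were, and not on 12, where 0.00421% were. Since the probe was chosen for this pattern, nothing is read from those calls. Complete separation of old_CR above the other group was itself not rare: 5.39% of probes showed it against young_AL and 3.64% against old_AL on 12 arrays, and 5.41% and 7.8% on 11. On 11 arrays, 0.394% of probes differed at least as far upward for old_CR against young_AL, and 0.0593% for old_CR against old_AL. On 12 arrays these shares were 0.392% and 0.78%. The probe was chosen on these values, so the shares are a description and test nothing.

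A_64_P036063 carries the same accession. Its mean processed intensity was 148, 160, 140 and 148 on young_AL 1 to 4, 148, 151 and 219 on old_AL 2 to 4, and 167, 136, 136 and 182 on old_CR 1 to 4. On old_AL 1 both of its spots were marked as outliers by the scanner software, and the array gives no value. After scaling, the levels were -4.21, -4.26, -4.36 and -4.38 in young_AL, -4.18, -4.13 and -3.65 in old_AL 2 to 4, and -4.16, -4.49, -4.32 and -4.10 in old_CR. The restricted arrays overlapped both other groups. Under this scaling, though not under every other one, old_AL stood above young_AL without overlap, with old_AL 4 far above old_AL 2 and 3. In old_AL against young_AL, 4.17% of probes stood higher without overlap on 12 arrays and 11.8% on 11. The means were -4.30 ± 0.08 (SD, n = 4), -3.99 ± 0.29 (n = 3) and -4.27 ± 0.18 (n = 4) in young_AL, old_AL and old_CR. The difference was 0.31 ± 0.15 (SE) for old_AL over young_AL, -0.28 ± 0.15 for old_CR against old_AL and 0.03 ± 0.14 for old_CR against young_AL on 12 arrays, and 0.31 ± 0.13, -0.28 ± 0.13 and 0.03 ± 0.12 on 11. The order of groups for this probe was old_AL, old_CR and young_AL, with the last pair apart by less than the spread of either.

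A_64_P018751, the third Aqp4 probe, was well above background on 1 array of 12, old_AL 1. Its processed intensity was 3.64 to 16.2 in young_AL, 3.84 to 17.3 in old_AL 2 to 4 and 5.13 to 16.2 in old_CR, with 184 on old_AL 1. The scanner software's own error estimate came to between 22.4% and 100.3% of the value, against at most 10.9% for the other Aqp4 probes. No group stood apart, and with both sides of each comparison not well above background no fold is given. Its spot lay below its local background on most arrays, with medians of 50 to 66 over a background of 57 to 75 in young_AL, 48 to 83 over at least 104 in old_AL 2 to 4, and 59 to 73 over 71 to 97 in old_CR.

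The contrast between the 2 measurable Aqp4 probes can be read within each array, where scaling between arrays plays no part. The ratio of A_44_P561166 to A_64_P036063, on the log2 scale, was -0.61, -0.11, -0.20 and -0.06 on young_AL 1 to 4. It was -0.19, 0.03 and -0.08 on old_AL 2 to 4. It was 0.98, 1.37, 1.20 and 1.27 on old_CR 1 to 4. Only the change in such a ratio between arrays has a meaning, since probes differ in how brightly they bind, and that change set all 4 restricted arrays apart from the other 7. The means were -0.25 ± 0.25 (SD, n = 4), -0.08 ± 0.11 (n = 3) and 1.21 ± 0.17 (n = 4) for young_AL, old_AL and old_CR. The ratio shows that the probes changed unequally, not that either stayed level. On old_AL 1 the spots that passed give no ratio. With the outlier spots let back in it was -1.65, far below the other arrays.

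**Figure D2:**
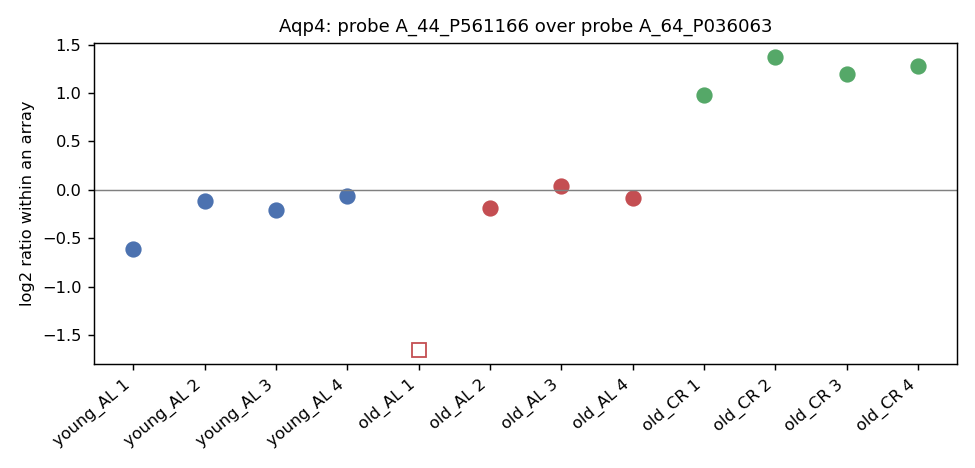
Log2 ratio of Aqp4 probe A_44_P561166 to Aqp4 probe A_64_P036063 within each array, by array; the open square is old_AL 1 with outlier spots included. The old_CR arrays lie between 0.98 and 1.37 and the 7 other arrays with usable spots between -0.61 and 0.03.

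Aqp4 was chosen because its probes disagree, so its place among other genes is a description and tests nothing. Disagreement of the size it showed was uncommon among genes with more than 1 tested probe. On 11 arrays 2168 genes had at least 2, and the median gap between the highest and lowest of a gene's probe differences was 0.12 for old_CR against old_AL and 0.08 for old_CR against young_AL. For Aqp4 the gaps were 1.28 and 1.45. A gap at least as wide was found in 17 of the 2168 genes (0.784%) and in 21 (0.969%). Among the 261 genes as dim as Aqp4 it was more frequent for old_CR against old_AL, with 12 genes (4.60%), and similar for old_CR against young_AL, with 2 genes (0.766%). In old_AL against young_AL the Aqp4 gap was 0.17, and 34.0% of genes had one at least as wide. With old_AL 1 among the arrays, 67 of 2177 genes (3.08%) reached the Aqp4 gap of 1.20 in old_CR against old_AL.

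Replicate spots tell how far the position on an array could matter. The spots of A_44_P561166, at row 31, column 40 and at row 113, column 13, read 88.7 and 106, 167 and 130, 147 and 100, and 154 and 131 on young_AL 1 to 4. They read 138 and 122, 172 and 139, and 209 and 205 on old_AL 2 to 4, and 329 and 332, 373 and 329, 318 and 305, and 462 and 419 on old_CR 1 to 4. Both spots were thus above 300 on each restricted array and below 210 on each of the 7 others. The SD between spots of an array, on the log2 scale, ran from 0.01 to 0.39 with a median of 0.13 for A_44_P561166, from 0.02 to 0.22 with a median of 0.06 for A_64_P036063, and from 0.02 to 0.08 with a median of 0.04 for the 10 spots of Aqp1. Taken spot by spot, A_44_P561166 differed by 0.96 and 1.05 between old_CR and old_AL on 11 arrays. The 42 to 46 gene probe spots within 3 rows and columns of each had medians between -0.07 and 0.03 in the same comparison. Against young_AL the spots differed by 1.42 and 1.55, and the lower of their neighbours' medians was -0.02. The local background around A_44_P561166 was 71 to 92.3 in old_CR, 96.5 to 105 in old_AL 2 to 4 and 56.5 to 76 in young_AL.

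Aqp1 was a bright probe, well above background on 12 of 12 arrays. Its mean processed intensity was 5512, 4089, 5687 and 5754 on young_AL 1 to 4, 22716, 7750, 5458 and 4276 on old_AL 1 to 4, and 6021, 5807, 5711 and 6718 on old_CR 1 to 4. The levels were 1.01, 0.42, 0.99 and 0.90 in young_AL, 1.57, 1.53, 1.05 and 0.64 in old_AL, and 1.01, 0.93, 1.07 and 1.11 in old_CR. The old_AL arrays were spread most widely and overlapped both other groups, young_AL 2 was the lowest array of all, and the restricted arrays lay close together. The means were 0.83 ± 0.28 (SD, n = 4) in young_AL, 1.20 ± 0.44 (n = 4; 1.07 ± 0.45, n = 3, without old_AL 1) in old_AL and 1.03 ± 0.08 (n = 4) in old_CR. Their order was old_AL, old_CR and young_AL, and no neighbours in that order differed beyond the spread of their arrays. The difference was 0.37 ± 0.21 (SE) for old_AL over young_AL, -0.17 ± 0.21 for old_CR against old_AL and 0.20 ± 0.21 for old_CR against young_AL on 12 arrays. On 11 arrays it was 0.24 ± 0.20, -0.04 ± 0.20 and 0.20 ± 0.19. Without old_AL 2 as well, Aqp1 in old_AL exceeded young_AL by 0.01, and without old_AL 4 by 0.46.

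**Figure D3:**
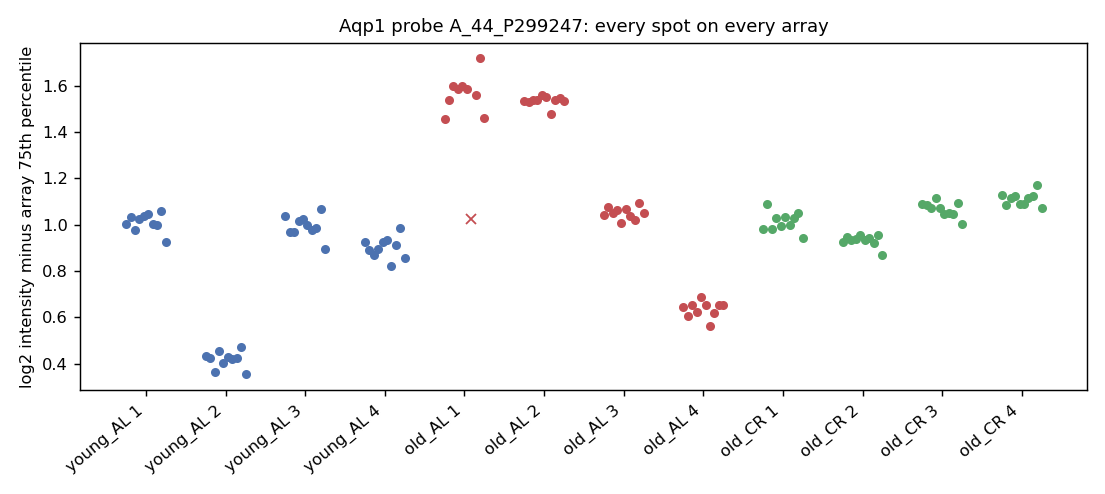
Level of the Aqp1 probe (log2 intensity minus the array's 75th percentile) at each of its 10 spots on each array; the cross is a spot marked as an outlier and left out. Spots of an array lie close together, while young_AL 2 and old_AL 4 sit low at 0.42 and 0.64 and old_AL 1 and 2 sit high at 1.57 and 1.53.

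The 10 spots of Aqp1 show the spread within an array, which does not hold the error of labelling or hybridisation between arrays. On young_AL 2 they read from 3911 to 4242 and on old_AL 2 from 7445 to 7891, so the spots of these arrays did not overlap. One of the 10 spots on old_AL 1, at 15602, was left out as an outlier, and the other 9 read from 20988 to 25182. The erythroid list, genes of red cell precursors and red cells, whose membranes are rich in the Aqp1 product, was high on one of the same arrays. Of its 11 genes 9 were found on the array, 8 were tested on 11 arrays and 0 passed in any comparison by limma, with 7 at an unadjusted p under 0.05 for the age comparison, 4 for old_CR against old_AL and 0 for old_CR against young_AL. Its mean level relative to young_AL was 1.76 on old_AL 2, 0.46 and 0.59 on old_AL 3 and 4, -0.29 to 0.47 in young_AL and 0.10 to 0.77 in old_CR. On old_AL 1, the other array high in Aqp1, it was -0.68, and on old_AL 4, where Aqp1 was low, it was 0.59. Its part in the Aqp1 values was not tested. Endothelial genes, of vessels that can carry Aqp1, were at 0.28 and 0.30 on old_AL 2 and 3, -0.01 on old_AL 4, -0.05 to 0.08 in young_AL and -0.16 to 0.06 in old_CR, and at -0.19 on old_AL 1, with 10 of 11 tested and 0 past the test by limma (3, 5 and 2 at an unadjusted p under 0.05). Such a p was common on 11 arrays: in the same order of comparisons, 5375, 6134 and 4283 of all 23623 probes had one.

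Array old_AL 4 was the highest of old_AL 2 to 4 for both measurable Aqp4 probes, at -3.73 and -3.65, and the lowest for Aqp1. On that array the 7875 dimmest tested probes, to which both Aqp4 probes belong, stood 0.46 above young_AL in the median, against -0.08 to 0.05 on the other arrays bar old_AL 1, where it was -1.15. Markers of central glia, which would come with spinal cord or root entry tissue rich in Aqp4, stood 0.99 above young_AL on old_AL 4, against -0.06 to 0.04 in young_AL, -0.02 and 0.11 on old_AL 2 and 3 and -0.15 to 0.17 in old_CR. Of these 8 markers 6 were tested, 0 passed by limma in any comparison (1 at an unadjusted p under 0.05 in each on 11 arrays), and Mog and Olig2, markers of oligodendrocytes, failed the detection filter. The list's other oligodendrocyte markers passed it, well above background on 11 or 12 arrays. Without old_AL 4 as well as old_AL 1, the difference of A_44_P561166 between old_CR and old_AL was 1.17, and old_AL exceeded young_AL by 0.32 for A_44_P561166 and by 0.15 for A_64_P036063. On old_AL 1 the central glia markers were at -0.65. The part of central glia or of the dim probes' shift in the Aqp4 values was not tested.

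Across the 11 arrays the members did not move together. The correlation of A_44_P561166 with A_64_P036063 was 0.08, of Aqp1 with A_44_P561166 0.07, and of Aqp1 with A_64_P036063 -0.18. The genes whose probes followed each member most closely were sought among 12365 or 12366 named probes that were detected at every array, with the arrays' shared scaling and the groups themselves among what such points have in common. For A_44_P561166 they were Klhl14 (r = 0.98), a kelch-domain protein, Ppp3cb (0.96), a catalytic subunit of calcineurin, Caly (0.94), a neuronal vesicle protein, and Aard (0.94). Klhl14 was 0.46 higher in old_CR than in old_AL and 0.77 higher than in young_AL, about the same shape at a smaller size, but with old_AL 1 its correlation was 0.61, and that of Ppp3cb 0.40. For A_64_P036063 they were Ak7 (0.97), an adenylate kinase of cilia, Vmac (0.96), Adam11 (0.96), Ankrd12 (0.94) and Smug1 (0.94), a uracil DNA glycosylase. Each of these genes was highest of the 11 arrays on old_AL 4, as was A_64_P036063 itself at -3.65. Ak7 was at -5.97 on old_AL 4 and at -6.62 to -6.30 on the others. On old_AL 4 the dimmest tested probes stood 0.46 above young_AL in the median. The part of that array in these correlations was not tested. For Aqp1 the closest genes were Pcsk1n (0.94), a neuroendocrine inhibitor of prohormone convertase, Ctdnep1 (0.93), a nuclear envelope phosphatase, Usf1 (0.93), a transcription factor, Polr2e (0.91), an RNA polymerase subunit, and Eef2 (0.91), the translation elongation factor. With old_AL 1 counted, the correlations of the Aqp1 set were 0.04 for Pcsk1n, 0.46 for Ctdnep1, 0.12 for Usf1, -0.36 for Polr2e and 0.84 for Eef2. No gene was named for more than 1 member.

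The remaining aquaporins gave no call in any comparison on 12 or 11 arrays by limma with the 75th percentile scaling, with 8 of 10 tested. On 11 arrays 0, 2 and 2 of them had an unadjusted p under 0.05 in the age comparison, in old_CR against old_AL and in old_CR against young_AL. So did 5375, 6134 and 4283 of all 23623 probes. Aqp3 is a water and glycerol channel, read here through a dim probe. It was well above background on 8 of 12 arrays, at levels of -7.57 to -6.50 on the 11 without old_AL 1. Its level was 0.64 ± 0.16 (SE) higher in old_CR than in young_AL, adjusted p = 0.067, and 0.32 ± 0.17 higher than in old_AL, adjusted p = 0.256, on 11 arrays. The latter had no settled direction: it was -0.18 on 12 arrays, and on 11 arrays 1.09 under quantile normalization, adjusted p = 0.094, and -0.19 under normexp, adjusted p = 0.022. Normexp on 11 arrays, under which 5430 probes passed in old_CR against old_AL, also gave calls there for Mip at -0.37, Aqp2 at -0.46 and Aqp8 at -0.57. In old_AL against young_AL, where 4358 probes passed under that setting, it gave calls for Aqp3 at 0.35, adjusted p = 0.0033, Aqp12a at 0.36 and Mip at 0.27. Aqp2, the vasopressin-regulated channel of the kidney, and Aqp8 differed by -0.48 ± 0.16 and -0.64 ± 0.25 between old_CR and old_AL, adjusted p = 0.117 and 0.152. Aqp11, a channel of internal membranes, differed by no more than 0.03 in any comparison. For Mip, Aqp5, Aqp9 and Aqp12a the old_CR against young_AL difference was -0.13, -0.24, -0.12 and 0.32. Aqp6 and Aqp7 did not pass the detection filter. The list's median difference was 0.28, -0.19 and -0.12 in these 3 comparisons, beside 0.04, -0.06 and -0.02 for all probes, on 11 arrays. On 12 arrays the first was 0.0065 and the others -0.12 and -0.12. The list's mean level relative to young_AL was 0.60 on old_AL 4, 0.07 and -0.01 on old_AL 2 and 3 and -0.70 on old_AL 1.

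**Figure D4:**
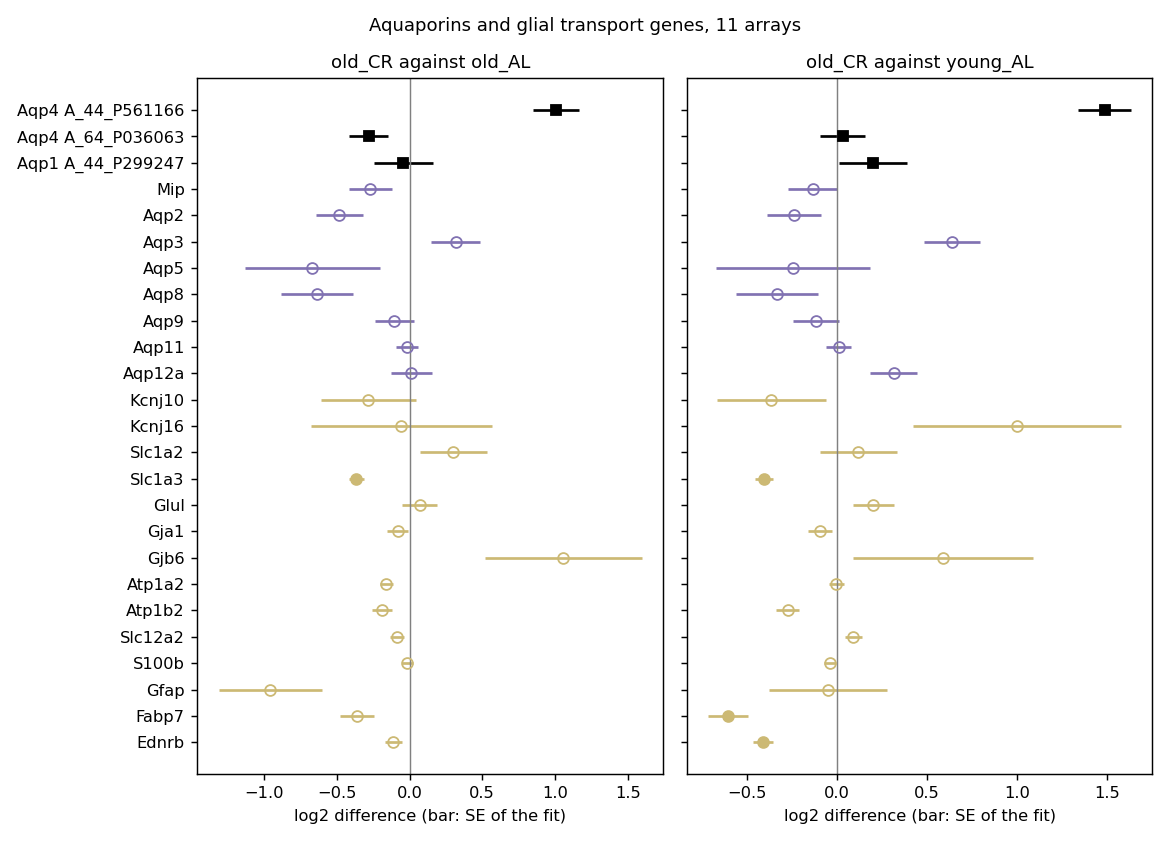
Log2 difference with its SE on 11 arrays for the members (black squares), the other tested aquaporins (purple) and genes of glial water, potassium and glutamate handling (yellow), old_CR against old_AL on the left and against young_AL on the right; filled circles passed the test and no test is attached to the squares. A_44_P561166 lies at 1.0 and 1.49, while A_64_P036063 and Aqp1 lie between -0.28 and 0.20.

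Genes of the complex that anchors the AQP4 protein gave 1 call among 8 tested of 14 listed. Agrn, whose product agrin organises AQP4 at glial end feet, was lower in old_AL than in young_AL on 11 arrays, a difference of -0.18 ± 0.04 (SE), adjusted p = 0.042, but it passed in 0 of 11 fits with a further array left out, and its other probe differed by -0.03. On 12 arrays the difference was 0.25 ± 0.33. For Dmd, Utrn and Trpv4, an osmosensing channel, the difference of old_CR from old_AL was -0.03, -0.21 and -0.36 on 11 arrays, and none passed. On 12 arrays these differences were 0.19, 0.37 and -0.23, so the sign for Dmd and Utrn rests on old_AL 1. The list's median was -0.08 in old_CR against old_AL on 11 arrays and 0.14 on 12, and -0.10 in old_CR against young_AL on both.

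Of 14 genes of glial water, potassium and glutamate handling, all tested, 0 rose and 1, 1 and 3 fell on 11 arrays, in the same order of comparisons, and 0 passed on 12, where 0 of all 99 listed genes did in any comparison (14, 9 and 8 at an unadjusted p under 0.05). Of all 23727 probes on 12 arrays, 1563, 1379 and 641 had such a p. Slc1a3, the glutamate transporter GLAST, was lower in old_CR than in old_AL, a difference of -0.36 ± 0.05 (SE), adjusted p = 0.0305, and lower than in young_AL, a difference of -0.40 ± 0.05, adjusted p = 0.00952. Its second probe gave -0.48 and -0.29, and on 12 arrays 0.09 in the former comparison, where the first probe gave -0.33. Ednrb, the endothelin B receptor of satellite glia, was lower than in young_AL both in old_AL, by a difference of -0.30, adjusted p = 0.0393, and in old_CR, by -0.41, adjusted p = 0.0129. Fabp7, a fatty acid binding protein of satellite glia, was lower in old_CR than in young_AL, by a difference of -0.60, adjusted p = 0.0282. With each further array left out in turn, Slc1a3 and Ednrb in old_CR against young_AL passed in 11 of 11 fits, Slc1a3 in old_CR against old_AL in 5, Fabp7 in 4 and Ednrb in old_AL against young_AL in 1. Kcnj10, the channel that works beside AQP4, differed by -0.28 ± 0.33 and -0.36 ± 0.30 in old_CR against old_AL and young_AL on 11 arrays, and by 0.24 against old_AL on 12. The satellite glia markers as a list had a mean level relative to young_AL of -0.26 to -0.19 in old_CR, -0.10 to 0.01 on old_AL 2 to 4 and -0.08 to 0.03 in young_AL, and the lowest value of all, -0.50, was on old_AL 1. All 9 of them were tested, and 1, 1 and 4 fell in the 3 comparisons on 11 arrays and 0 on 12. This list is not independent of the 14 genes above: most of its genes, among them Slc1a3, Ednrb, Fabp7 and Kcnj10, are in both. Its calls were those of Slc1a3, Ednrb and Fabp7 given above, and Sox10 in the last comparison. The part of satellite glia in the Aqp4 values was not tested.

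Scaling and background correction moved the size of the A_44_P561166 values. Under quantile normalization, median centring and normexp background correction, the lowest old_CR array was above the highest array of young_AL and of old_AL in each case. The young_AL and old_AL arrays overlapped under quantile normalization and median centring. The difference of old_CR from old_AL was 1.21 under quantile normalization and 0.75 under normexp on 11 arrays, and that from young_AL was 1.46 and 1.06. The normexp setting adds an offset of 50 to the intensity, which shrinks log2 differences of dim probes. The step from young_AL to old_AL in the same probe was 0.25 under quantile normalization and 0.32 under normexp. The sign of A_64_P036063 stayed negative in old_CR against old_AL, at -0.05 under quantile normalization and -0.30 under normexp, on 12 arrays as on 11. Its young_AL and old_AL arrays, apart under the 75th percentile scaling, overlapped under quantile normalization and median centring. Aqp1 in old_CR against old_AL ran from -0.06 under quantile normalization to 0.06 under median centring on 11 arrays, so its sign there rested on the scaling.

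**Figure D5:**
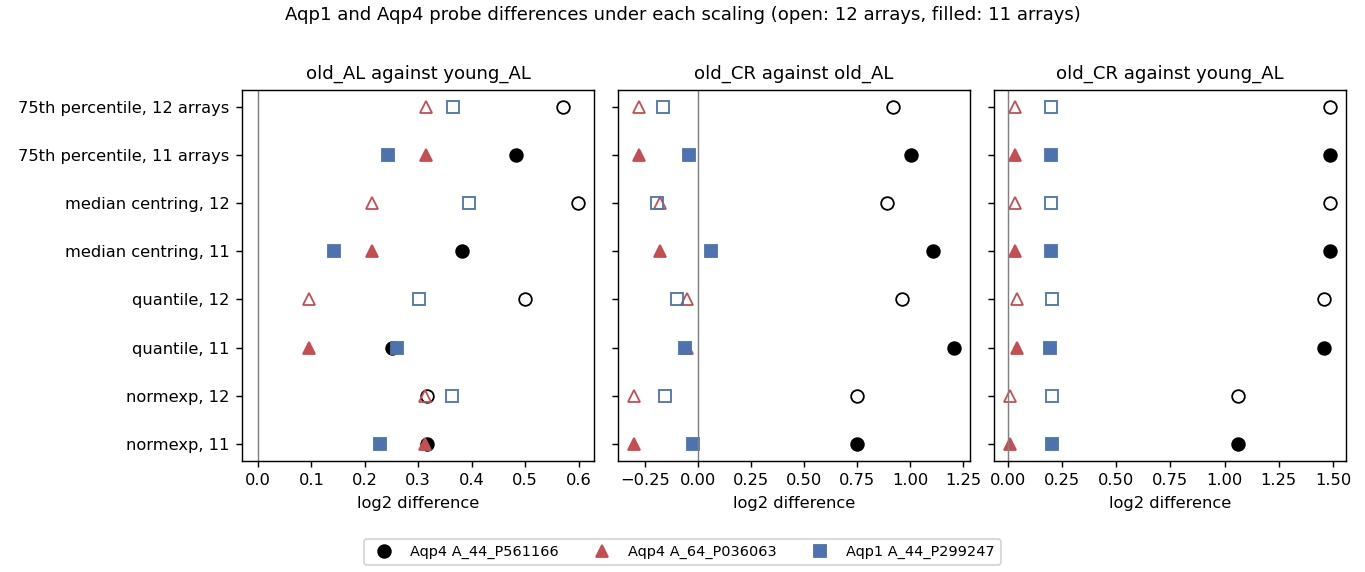
Log2 difference of each measurable member probe in the 3 comparisons (panels) under 4 ways of scaling or background correction, on 12 arrays (open) and on 11 without old_AL 1 (filled). A_44_P561166 keeps a difference of 0.75 or more from old_AL and of 1.06 or more from young_AL in old_CR, while A_64_P036063 and Aqp1 lie between -0.30 and 0.39.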

How the data were processed

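RNA of 12 rat ganglion samples was hybridised to one-colour Agilent arrays, and the labels and design text give 3 groups of 4 rats. The authors deposited linear spot intensities that Agilent Feature Extraction 10.7 made, background-subtracted and detrended within an array but not scaled between arrays, per the file headers and the submitters' processing notes. The deposited series table held the same intensities, with a largest difference of 0, so it gave the same results as the array files. The flags for spots well above background, saturated or outlying were also taken as deposited.

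Here control spots and outlier spots were left out, log2 of the deposited intensity was scaled by each array's 75th percentile, replicate spots were averaged, and each probe was kept on its own. Probes with at least 0.5 of their spots well above background on at least 4 arrays were tested in limma 3.58.1 (R 4.3.3), with a mean per group, all groups sharing the spread, and Benjamini-Hochberg adjustment over all probes tested (23727 on 12 arrays, 23623 on 11) at a threshold of 0.05. The number of arrays limits the precision, and p-values measure the spread between these rats' arrays. Listed genes were read through their brightest tested probe. The arrays name 15154 gene symbols over 17998 probes through RefSeq accessions, and 12369 probes stayed unnamed.

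The text names every Aqp1 and Aqp4 probe, the 5 genes most correlated with each measurable one, all aquaporins, and of each list the genes that passed a test (at most 5), or else its 2 brightest. Some genes that this rule names are not reported here. Those kept for other reasons (Dmd, Utrn, Trpv4, Kcnj10, Mog, Olig2) were chosen after their values were seen. The members and lists were chosen with earlier results of these data known. Alternatives were quantile normalization, median centring, normexp (offset 50, on median spot and background signals, since the files used here hold no mean signal), no filter on dim probes, a block for the replicate number, and leaving out arrays one at a time. The fits were tested on simulated data. Promoter windows were read with Python 3.11.15.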

Additional observations from a re-analysis of the deposited data

Results flagged for a closer look

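In the old_CR group, the level of Aqp4 probe A_44_P561166 on old_CR 4 was -2.82 while the other 3 arrays lay between -3.17 and -3.12. Its gap to the nearest of them was 0.847 of the group's whole range, above Dixon's critical value for 4 samples. In all, 11 groups of 4 arrays were checked over the 4 probes and 1 was marked this way, and chance marks about 1 group in 20.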

How the results depend on the processing

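Of 288 refitted differences of the 3 measurable member probes, 274 stayed within the replicate spread of the value reported on 12 arrays and 14 moved beyond it, with no called value changing sign. Many of them could not move. The series table held the same intensities, and leaving out an array of the group not compared does not alter a difference. The only value called on 12 arrays was that of A_44_P561166 in old_CR against young_AL. Comparisons follow in the order of old_AL and young_AL, old_CR and old_AL, old_CR and young_AL. The probes past the threshold numbered 4, 1 and 4 on 12 arrays, 7, 3 and 5 under quantile normalization, 0 in each under normexp, 59, 5 and 3 with no filter on dim probes, and 2, 0 and 0 with the replicate number as a block. Same-numbered arrays did not deviate together (correlations of -0.06 to 0.08, against -0.13 to 0.097 for arrays of different number). With so few arrays, these correlations do not settle whether the numbers pair them. In every group the replicate number was also the column of the array on its slide. The block did not move a member probe beyond its spread, but on 12 arrays it could not move a probe with a value on every array. Without old_AL 1 the counts were 595, 215 and 553, then 1353, 552 and 473 under quantile normalization, 3058, 2007 and 518 under median centring, 4358, 5430 and 501 under normexp and 23, 1 and 20 with the block. Listed genes past the threshold, 0 in each on 12 arrays and 4, 2 and 7 on 11, were then 6, 3 and 5 (quantile), 15, 6 and 5 (median centring), 23, 26 and 6 (normexp) and 0 in each with the block.

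Quantile normalization gave A_64_P036063 0.096 in the first comparison and -0.052 in the second on 12 arrays, 0.095 and -0.052 on 11, and A_44_P561166 0.25 and 1.21 on 11. Normexp gave A_44_P561166 0.32 in the first and 1.06 in the last on 12 arrays and on 11. With single arrays left out, from 12 or from 11, probe counts ran from 2 to 595, 0 to 993 and 1 to 943, and listed genes from 0 to 4, 0 to 5 and 0 to 9. Aqp1 ran from 0.013 to 0.55 and from -0.35 to 0.19 in the first 2 comparisons, and A_44_P561166 from 0.32 to 0.70 and from 0.79 to 1.17. Agrn, 0.25 in the first comparison on 12 arrays, was -0.18 without old_AL 1, -0.18 with quantile normalization as well, -0.28 with median centring, -0.20 with normexp, and between -0.19 and 0.41 with single arrays left out. Aqp12a there was -0.42, and 0.36 under normexp without old_AL 1. The cause was not tested. Signal over background limits A_64_P018751 in all groups, and 4 arrays a group limit every SE.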

Other observations

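Among listed genes that belong to neither the aquaporins nor the glial transport set, calls were few and came on 11 arrays, with 0 on 12. Car4, a membrane carbonic anhydrase that acts beside bicarbonate transport, was lower in old_CR than in young_AL by a difference of -1.99 ± 0.26 (SE), adjusted p = 0.0117 by limma, in 11 of 11 fits with a further array left out. Its probe was well above background on 9 of 12 arrays only, and its difference was -0.59 under normexp. Slc4a4, a sodium bicarbonate cotransporter, was lower in old_AL than in young_AL at -0.24, adjusted p = 0.0452, but in 1 of 11 such fits, and its other probe gave -0.06. These were the calls of 5 tested partners of carbonic anhydrase and bicarbonate, 0 of which passed in old_CR against old_AL (2 at an unadjusted p under 0.05, as were 6134 of all 23623 probes).

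Collagen gene Col1a1 of fibroblasts was lower in old_CR than in young_AL at -0.92, adjusted p = 0.0205, in 6 of 11 fits, and was the single call among 7 fibroblast and meningeal genes. Myelin gene Pmp22 (-0.30, adjusted p = 0.0499, 3 of 11 fits) was the single call among 7 Schwann cell genes in the same comparison. Of these 7, 5 had an unadjusted p under 0.05 by limma, as had 4283 of all 23623 probes. The list's median difference was -0.39, beside -0.02 for all probes. The satellite glia gene Sox10 (-0.31, adjusted p = 0.0449, 2 of 11 fits) also fell in old_CR against young_AL. Mrgprd, a receptor of non-peptidergic nociceptors, was lower in old_AL than in young_AL at -0.42, adjusted p = 0.049, in 1 of 11 fits, among 8 nociceptor genes. Isl1, a sensory neuron transcription factor, was higher in old_CR than in old_AL at 0.31, adjusted p = 0.0305, in 5 of 11 fits, among 6 pan-neuronal genes. None of 8 tested skeletal muscle genes passed (0 at an unadjusted p under 0.05), though the list's mean was 1.75 above the young mean on young_AL 2, the array with the lowest Aqp1 level.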
